A study of Homo sapiens with 9 samples.

Results

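The metallothioneins were followed in Caco-2 cells, human colon cancer cells that are widely grown to mimic absorptive intestinal cells, after addition of either of 2 ligands of the aryl hydrocarbon receptor (AHR) to lovastatin. The 8 genes MT1A, MT1E, MT1F, MT1G, MT1H, MT1M, MT1X and MT2A were taken by name from a table of 27677 genes, with the transcript row of the highest total standing for each gene. They were chosen with the results of all 3 comparisons known, so their values are a description and carry no test. All 8 were in the table, and 5 of them (MT2A, MT1X, MT1F, MT1E and MT1G) were among the 14678 genes that passed a filter on low counts, while MT1H, MT1A and MT1M did not pass. A gene at or near 0 with lovastatin alone could pass that filter only through the ligand groups.

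The 3 groups held 3 libraries each. Cells received 10 µM lovastatin with 10 µM SGA360, 10 µM lovastatin with 10 µM SGA315, or 10 µM lovastatin alone, all for 48 h in medium with lipid-depleted serum. Lovastatin, an inhibitor of cholesterol synthesis, was thus present in every library, and cells without it were not analysed here. SGA360 and SGA315 are known here by code name, and the labels describe both as selective AHR ligands. Whether replicates were grown as separate cultures is not stated, so the spread behind every p-value may be technical only. Because RNA was pooled over cells, a change in the share of cells with a transcript and a change in its level per cell cannot be told apart.

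Metallothioneins are small, cysteine-rich proteins that bind zinc and copper, and also cadmium. Zinc and cadmium raise their transcription through MTF1, a zinc-finger transcription factor that binds metal response elements in their promoters, and glucocorticoids and cellular stress are also known to raise some of them. In the intestine they buffer zinc inside absorptive cells. The human MT1 genes and MT2A lie side by side on chromosome 16, together with MT3, known from brain, and MT4, known from stratified epithelium.

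The promoters of the members are shown because the metal response element is the sequence by which this family is best known. RefSeq (GRCh38.p14) gave promoters for MT2A, MT1X and MT1H, and, of the other loci of the cluster, for MT1B, which was almost without counts, and MT4, which had none and is not printed. Each line below holds the 250 bases before the start, on the plus strand, and the capitals mark each match to the core of the metal response element, TGCACNC or TGCGCNC on either strand.
MT2A, chr16:56608334-56608583: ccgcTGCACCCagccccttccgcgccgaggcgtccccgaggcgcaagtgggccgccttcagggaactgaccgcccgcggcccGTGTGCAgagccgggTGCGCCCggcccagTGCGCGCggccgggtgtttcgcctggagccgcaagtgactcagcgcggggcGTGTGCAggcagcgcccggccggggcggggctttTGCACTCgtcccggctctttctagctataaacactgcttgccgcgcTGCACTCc
MT1X, chr16:56682220-56682469: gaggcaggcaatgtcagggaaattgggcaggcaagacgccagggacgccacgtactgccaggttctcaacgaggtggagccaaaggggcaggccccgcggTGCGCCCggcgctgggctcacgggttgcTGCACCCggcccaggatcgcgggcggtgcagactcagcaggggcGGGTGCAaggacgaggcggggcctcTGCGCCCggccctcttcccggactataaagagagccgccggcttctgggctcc
MT1H, chr16:56669564-56669813: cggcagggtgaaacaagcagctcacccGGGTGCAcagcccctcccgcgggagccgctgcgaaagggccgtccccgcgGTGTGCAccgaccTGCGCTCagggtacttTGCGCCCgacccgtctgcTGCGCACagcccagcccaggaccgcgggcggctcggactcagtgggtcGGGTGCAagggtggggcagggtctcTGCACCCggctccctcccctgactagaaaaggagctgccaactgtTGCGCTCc
MT1B, chr16:56651636-56651885: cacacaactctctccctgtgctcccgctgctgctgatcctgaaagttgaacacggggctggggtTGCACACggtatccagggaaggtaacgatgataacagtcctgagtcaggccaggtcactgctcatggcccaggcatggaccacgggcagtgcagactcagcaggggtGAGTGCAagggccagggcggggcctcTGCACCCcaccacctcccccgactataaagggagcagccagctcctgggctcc

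The MT2A promoter held 7 matches, the MT1X promoter 4, the MT1H promoter 8 and the promoters of MT1B and MT4 3 each. Of 35116 promoters of the same length, 24.8% held at least 1 match. At least 7 matches stood in 0.0313% of them, at least 4 in 0.37%, at least 8 in 0.0171% and at least 3 in 1.58%. The core of the AHR element, GCGTG on either strand, occurred once in the MT2A promoter, where its start at position -90 overlaps the metal response match that starts at -88, and it was not found in these windows of MT1X, MT1H, MT1B or MT4. At least 1 such core stood in 32.2% of promoters. A match describes the letters of the window and is not evidence of binding.

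MT2A, the most counted member, had 32.9, 34.5 and 40.9 CPM (counts scaled to a common library size) in the 3 libraries with SGA360. It had 9.07, 8.48 and 6.66 CPM in those with SGA315, against 1.28, 0.675 and 1.56 CPM with lovastatin alone. The 3 groups did not overlap and stood in the order SGA360, SGA315, lovastatin. The fitted change was 29.8-fold with SGA360 (log2 4.90 ± 0.135, SE) and 6.77-fold with SGA315 (log2 2.76 ± 0.195), and the level with SGA360 was 4.4 times that with SGA315.

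MT1X had 21.3, 21.5 and 21.3 CPM with SGA360 and 5.79, 5.68 and 4.77 CPM with SGA315, against 0.673, 1.5 and 1.49 CPM with lovastatin alone. Again no library of one group reached into another. Its fitted change was 17.5-fold with SGA360 (log2 4.13 ± 0.14, SE) and 4.45-fold with SGA315 (log2 2.15 ± 0.197). MT1X is also the member whose transcript is least its own: 45.1% of its windows of 50 bases occur in other genes, most of them metallothionein loci, so reads of relatives could be counted with it or lost.

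MT1F, a further MT1 isoform, had the smallest fitted change of the 5 tested members and the highest counts among them with lovastatin alone. Its level was 9.7, 11.1 and 11.7 CPM with SGA360 and 5.52, 5.05 and 4.77 CPM with SGA315, against 1.35, 1.58 and 1.69 CPM with lovastatin alone. The fitted change was 6.97-fold with SGA360 (log2 2.80 ± 0.152, SE) and 3.33-fold with SGA315 (log2 1.73 ± 0.184). Only 3.59% of its windows of 50 bases are shared with other genes, the lowest share in the family.

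MT1E had 3.86, 4.06 and 4.25 CPM with SGA360 and 0.921, 0.841 and 0.832 CPM with SGA315, against 0.337, 0.075 and 0 CPM with lovastatin alone. The lovastatin level rests on 6 counts, 5 of them in replicate 1. The fitted changes were log2 4.79 ± 0.35 with SGA360 and 2.58 ± 0.526 with SGA315 (SE). They became 6.53 and 4.32 without lovastatin replicate 1, and 4.18 and 1.97 without lovastatin replicate 3. With a prior count of 2 they were 3.93 and 1.88. The size of the MT1E change against lovastatin alone therefore rests on few counts, most of them in 1 library. The ratio of SGA360 to SGA315, 4.62-fold, does not use these counts.

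MT1G and MT1H were detected mainly with SGA360. MT1G had 13, 15 and 10 counts with SGA360 and 2, 4 and 1 with SGA315, against 0, 1 and 0 with lovastatin alone. Scaled for depth, the summed counts stood in a ratio of 35.6 for SGA360 over lovastatin (exact 95% interval 6.01 to 1442) and 7.15 for SGA315 over lovastatin (0.919 to 322). These intervals cover counting error only, and the second includes no difference. The fitted MT1G changes of log2 4.71 and 2.46 became 6.62 and 4.36 without lovastatin replicate 2, which holds the single count, and 2.59 and 0.92 with a larger prior count of 2.

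MT1H had 11, 14 and 20 counts with SGA360 and 2, 3 and 1 with SGA315, against 0 in each library with lovastatin alone. With the lovastatin group set to a floor of 3 counts, the MT1H ratio, scaled for depth, was 14 for SGA360 and 2.04 for SGA315. The ligand sums, 45 and 6 counts, entered without their counting error and no interval was computed. These ratios are therefore not strict lower limits, least of all that for SGA315. Replicate 3 with SGA360, at 1.57 CPM, lay apart from the other SGA360 libraries, at 0.663 and 0.811 CPM. Between the ligands the ratio of summed counts was 6.88 (exact 95% interval 2.92 to 19.7).

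MT1A and MT1M were at the edge of detection. MT1A had 3, 3 and 2 counts with SGA360 and 2, 4 and 1 with SGA315, against 1, 2 and 1 with lovastatin alone, and the intervals of all 3 of its ratios include no difference (0.502 to 8.5 for SGA360 over lovastatin). MT1M had 3, 3 and 0 counts with SGA360 and none in the other 6 libraries. A change of MT1A of the size seen for MT2A would lie outside its interval for SGA360, whereas none can be judged for MT1M at this depth.

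**Figure D1:**
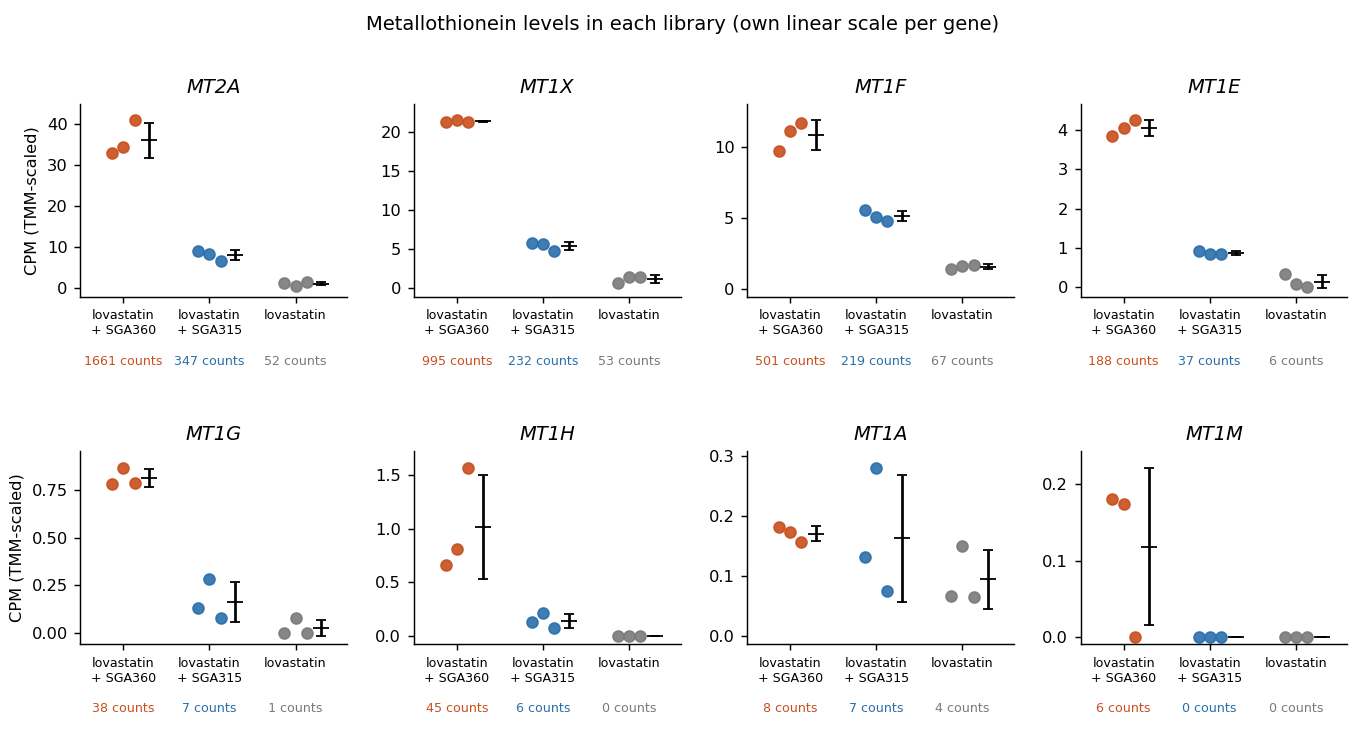
Level of each metallothionein in CPM (linear axis, own scale per gene) in the 9 libraries, with SGA360 left, SGA315 in the middle and lovastatin alone right. Points are libraries, black bars the mean and SD of 3, and coloured numbers the summed counts of the group; MT2A sits between 32.9 and 40.9 CPM with SGA360, while MT1A spans 1 to 4 counts over all 9 libraries.

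No library overlapped the other group, on the higher side, for 7 of the 8 members with SGA360 against lovastatin, 6 with SGA315 against lovastatin and 6 with SGA360 against SGA315. The share of all genes tested with no overlap on the higher side was 33.4%, 36.6% and 24.6% in these comparisons. For MT1A against lovastatin (SGA360) and MT1G against lovastatin (SGA315) the gap was less than the worth of 1 count. Because the members were chosen on these contrasts, nothing is read from the counts.

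Among the libraries with SGA315, replicate 3 was the lowest for MT2A, MT1X, MT1F, MT1E, MT1G, MT1H and MT1A alike. Among those with SGA360, replicate 3 was the highest for MT2A, MT1F, MT1E and MT1H, while MT1X varied by less than 1 CPM. With lovastatin alone the members did not share a lowest library: MT2A was lowest in replicate 2 and MT1X and MT1F in replicate 1.

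Summed over the 8 genes, metallothionein transcripts made up 69.6, 73.1 and 80.7 CPM with SGA360 and 21.7, 20.8 and 17.2 CPM with SGA315, against 3.7, 4.05 and 4.8 CPM with lovastatin alone. The means were 74.5 ± 5.68 CPM, 19.9 ± 2.36 CPM and 4.18 ± 0.56 CPM (SD, n = 3 each). The summed level was 17.8 times that of lovastatin with SGA360 and 4.76 times with SGA315, and with SGA360 it was 3.74 times that with SGA315. A read counted under the wrong member does not change this sum. A read that was lost, or counted at a locus outside the 8 genes, would change it.

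The ligands were given at the same dose and time, so their levels can be set side by side. The fitted change of SGA360 against SGA315 was log2 2.14 ± 0.0892 for MT2A, 1.97 ± 0.1 for MT1X, 1.07 ± 0.115 for MT1F, 2.21 ± 0.233 for MT1E and 2.26 ± 0.503 for MT1G (SE). MT1F thus stood at 2.1 times its SGA315 level with SGA360, while the other tested members stood between 3.93 and 4.78 times. The MT1G value became 2.85 without SGA315 replicate 2 and 1.67 with a prior count of 2.

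By fitted change with SGA360 over lovastatin, MT2A, MT1E, MT1G and MT1X held ranks 1, 2, 3 and 4 among 14678 genes and MT1F rank 14. With SGA315 over lovastatin the ranks were 17 for MT2A, 22 for MT1E, 33 for MT1G, 48 for MT1X and 125 for MT1F. With SGA360 over SGA315 they were 1 for MT1G, 2 for MT1E, 4 for MT2A, 6 for MT1X and 58 for MT1F. The ranks of MT1E and MT1G are loose, as their changes against lovastatin rest on 6 counts and 1 count. With SGA360 these changes moved past that of MT2A without 1 lovastatin library, to 6.53 and 6.62. They fell to 3.93 and 2.59 with a prior count of 2. The rank of MT1G between the ligands rests on 7 counts with SGA315. A change of at least 4-fold on the higher side was fitted for 0.313% of all genes with SGA360, 0.429% with SGA315 and 0.0341% between the ligands.

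**Figure D2:**
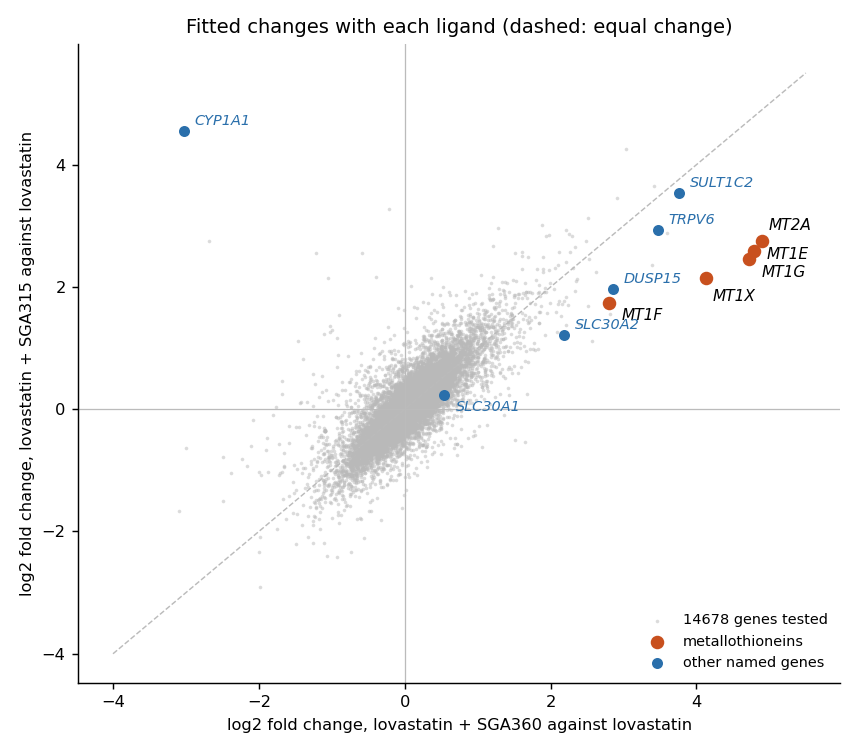
Fitted log2 fold change with SGA360 (horizontal) and SGA315 (vertical), each against lovastatin alone, for the 14678 genes tested (grey), with the 5 tested metallothioneins in orange and 6 other genes in blue. The metallothioneins lie below the dashed line of equal change, MT2A at 4.90 and 2.76, whereas CYP1A1 lies at -3.03 and 4.56; both axes share the 3 lovastatin libraries.

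The make-up of the family also differed between groups. MT2A took 48.4 ± 1.99% of the counts of the 8 genes with SGA360, 40.4 ± 1.64% with SGA315 and 27.9 ± 9.77% with lovastatin alone. MT1F took 14.5 ± 0.592% with SGA360 and 25.8 ± 1.72% with SGA315, against 36.8 ± 1.91% with lovastatin alone (SD, n = 3 each). The ranges of the 3 groups did not overlap for either gene, and these shares do not depend on how libraries were scaled.

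MT1X held a similar mean share in every group, 28.8 ± 2.15% with SGA360, 27.2 ± 0.488% with SGA315 and 28.8 ± 9.64% with lovastatin alone, with overlapping ranges. MT2A had 3.33 ± 0.194 counts per MT1F count with SGA360, 1.57 ± 0.154 with SGA315 and 0.767 ± 0.294 with lovastatin alone. In lovastatin replicate 2 that ratio was 0.429, from 9 MT2A counts and 21 MT1F counts.

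**Figure D3:**
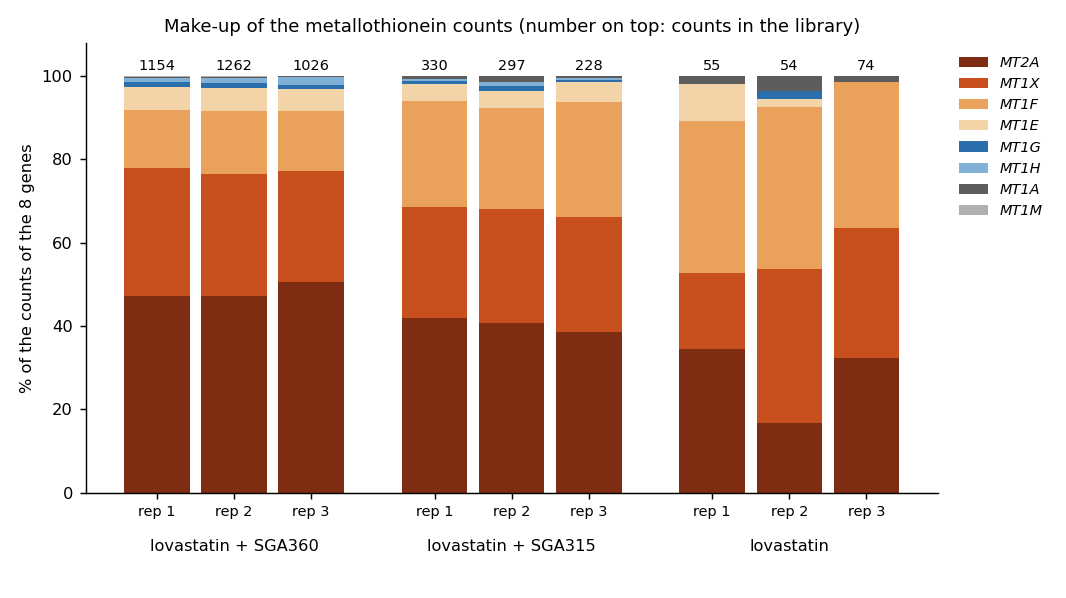
Share of each metallothionein, in percent of the counts of the 8 genes, in each library (stacked bars from 0 to 100%), with SGA360 left, SGA315 in the middle and lovastatin alone right; numbers on top are counts. The MT1F segment is 14 to 15.1% of the bar with SGA360, 24.2 to 27.6% with SGA315 and 35.1 to 38.9% with lovastatin alone, where bars rest on 54 to 74 counts.

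Levels can be compared between genes only per transcript length, here with lengths from GENCODE 29, which may differ from the annotation used for counting. On this scale MT1X and MT2A led with SGA360, at 47.5 ± 0.267 and 45.9 ± 5.38 CPM per kb, and did not differ beyond their spread. MT1F followed at 15.7 ± 1.49 CPM per kb, MT1E at 5.76 ± 0.276, MT1H at 2.56 ± 1.23 and MT1G at 2 ± 0.12, and MT1H and MT1G did not differ beyond their spread. MT1A at 0.431 ± 0.0305 and MT1M at 0.143 ± 0.124 CPM per kb were last.

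With SGA315 the order by CPM per kb was MT1X at 12 ± 1.25, MT2A at 10.3 ± 1.6, MT1F at 7.41 ± 0.555 and MT1E at 1.23 ± 0.0691, and the first pair again overlapped. With lovastatin alone MT1X at 2.71 ± 1.06, MT1F at 2.23 ± 0.251 and MT2A at 1.49 ± 0.573 CPM per kb could not be ordered beyond their spread. MT1E, MT1G, MT1H and MT1M were at or near 0 there, and MT1A lay at 0.238 ± 0.123 CPM per kb.

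The coding sequences of all 8 genes are 186 bases long, and any 2 of them are 88.7 to 95.2% identical. The closest pair was MT1G with MT2A and the most distant MT1F with MT1X. Besides MT1X, 20.4% of the windows of 50 bases of MT1H and 20.2% of those of MT1G occur in other genes, and 4.88 to 7.05% of those of MT2A, MT1E, MT1A and MT1M. How reads matching several members were treated is not given in the sources used here, so the split of counts between MT1G, MT1H and MT1X is the least certain, and no member was seen to overlap another gene in the RefSeq gene table.

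The remaining loci of the family were almost silent. MT1B had 1 count in 9 libraries, in a library with SGA315. MT3 and MT4, with the loci MT1L, MT1IP, MT1JP, MT1DP and MT1HL1, had 0 counts in all libraries, which allows up to 3 counts per library, or 0.174 to 0.236 CPM. TESMIN, a testis protein once named metallothionein-like, was the single gene of this list to be tested and was not called with either ligand: its log2 change was -0.05 ± 0.094 with SGA360 and 0.12 ± 0.0933 with SGA315 (adjusted p = 0.661 and 0.244, edgeR). With libraries scaled to their totals alone, the SGA315 change of TESMIN, then 0.24, passed the threshold.

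Depth, over 1 row per gene, was 12334088 to 16870131 counts per library, and the fitted coefficient of variation between libraries was 2.16%. In these libraries many genes were called, at an adjusted p under 0.05: 62.7% of those tested with SGA360 against lovastatin (4603 higher and 4604 lower), 69.2% with SGA315 (5285 and 4872) and 42.7% between the ligands (3199 and 3064). With scaling to totals alone the splits were 6463 higher and 3140 lower, 6923 and 3630, and 3057 and 3188. The median log2 change of all genes was then 0.14, 0.16 and -0.01, beside 0.02, 0.04 and -0.01 in the main fit. The epithelial markers EPCAM, CDH1, KRT8, KRT18, VIL1 and CDX2 were at 75 to 3514 CPM, while KRT20 had 18 counts in all. Of the markers of other cell types, SNAP25 was at 0, CD3E, CDH5 and DCN had at most 7 counts each over all libraries, and LUM and PTPRC had 23 and 37. PECAM1, VWF and RBFOX3 had 168, 150 and 221 counts, CD14 stood at 4.14 to 9.99 CPM and PDGFRB at 5.82 to 9.46 CPM, and PDGFRA reached 169 to 364 CPM. The part of these genes in the results was not tested.

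Genes outside the family were not chosen by the rule and can be tested, although the lists that hold them were written with earlier results of these data known. SLC30A1 and SLC30A2, zinc transporters that MTF1 is known to control, had levels in the same order of groups as MT2A, MT1X, MT1F and MT1E, with smaller changes than these 4 genes. SLC30A1, the zinc exporter of the plasma membrane, had 34.9 ± 1.11 CPM with SGA360 and 28.4 ± 1.77 CPM with SGA315, against 24.2 ± 1.85 CPM with lovastatin alone (SD, n = 3 each). It rose by log2 0.53 ± 0.0621 with SGA360 (adjusted p = 1.88e-11, edgeR) and by 0.23 ± 0.0659 with SGA315 (adjusted p = 0.00139), and stood 0.30 ± 0.0603 higher with SGA360 than with SGA315 (adjusted p = 3.23e-05).

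SLC30A2, which loads zinc into vesicles, had 8.62 ± 0.376 CPM with SGA360 and 4.39 ± 0.665 CPM with SGA315, against 1.87 ± 0.526 CPM with lovastatin alone. Its log2 change was 2.19 ± 0.158 with SGA360 (adjusted p = 9.07e-20, edgeR), 1.22 ± 0.188 with SGA315 (adjusted p = 5.05e-08) and 0.97 ± 0.13 for SGA360 over SGA315 (adjusted p = 3.55e-09). SLC30A4, a further vesicular zinc transporter, did not keep this order: it rose by 1.37 ± 0.174 with SGA360 and by 1.85 ± 0.164 with SGA315, and was 0.48 lower with SGA360 than with SGA315 (-0.48 ± 0.128, adjusted p = 0.00166). The promoter of SLC30A2 held 3 matches to the metal response core, those of SLC30A1 and SLC30A4 1 each, and that of SLC39A10, a zinc importer, 0. The AHR core had 0 matches in the promoter of SLC30A2, 3 each in those of SLC30A1 and SLC30A4, and 1 in that of SLC39A10. At least 3 such cores stood in 3.16% of promoters, and the promoter of the AHR target CYP1A1 held 1.

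MTF1 itself was not called in any comparison. It had 21.4 ± 0.443 CPM with SGA360 and 22.3 ± 0.653 CPM with SGA315, against 23.1 ± 0.512 CPM with lovastatin alone. Its log2 change was -0.11 ± 0.0667 with SGA360 (adjusted p = 0.145, edgeR; 95% interval -0.24 to 0.02) and -0.05 ± 0.0673 with SGA315 (adjusted p = 0.513; -0.18 to 0.08), and with scaling to totals alone these values lay at 0.00 and 0.07. Between the ligands the interval was -0.19 to 0.07 (adjusted p = 0.503). No MTF1 activity was measured.

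Of 9 tested genes in the list of MTF1 and its targets outside the family, 3 rose and 2 fell with SGA360, 2 rose and 3 fell with SGA315, and 5 were higher and 1 lower with SGA360 than with SGA315. Over all genes tested, 31.4% rose and 31.4% fell with SGA360, 36% and 33.2% with SGA315, and 21.8% and 20.9% were higher and lower between the ligands. These shares also stand beside the counts of every list below. With scaling to totals alone the list gave 3 and 1 with SGA360 and 4 and 3 with SGA315. The list's median log2 change was -0.03 with SGA360 and 0.01 with SGA315, beside 0.02 and 0.04 over all genes. These counts include MTF1 itself and SLC39A10. Of the other listed genes, CRIP1 fell by 0.59 and SELENOW fell by 0.42 with SGA315 (adjusted p = 3.97e-07 and 1.34e-09, edgeR). Neither was called with SGA360, at 0.00 and -0.05. SLC39A10, a zinc importer that MTF1 is known to repress when zinc is high, fell by 0.34 on the log2 scale with SGA360 (adjusted p = 1.77e-09, edgeR) and fell by 0.40 with SGA315 (adjusted p = 1.08e-11). The ligands did not differ in it by the test (log2 0.07, 95% interval -0.03 to 0.16, adjusted p = 0.28).

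Of 8 tested zinc exporters of the SLC30 family, 5 rose and none fell with each ligand: SLC30A1, SLC30A2, SLC30A4, SLC30A5 and SLC30A9. SLC30A5, a Golgi transporter, rose by 0.22 ± 0.0382 with SGA360 and 0.39 ± 0.0379 with SGA315, and SLC30A9, known from mitochondria, by 0.23 ± 0.0403 and 0.30 ± 0.0405. The median of this list was 0.23 with SGA360 and 0.27 with SGA315. Between the ligands 2 exporters were higher and 3 lower with SGA360.

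Of 11 tested zinc importers of the SLC39 family, 2 rose and 5 fell with SGA360 and 3 rose and 6 fell with SGA315, with medians of -0.08 and -0.13. With scaling to totals alone the SGA360 split was 3 and 3. SLC39A14, which also carries iron and manganese, fell by 0.40 with SGA360 and fell by 0.41 with SGA315, while SLC39A5, a basolateral importer of enterocytes in mice, rose by 0.55 and 0.96. SLC39A1 fell by 0.17 with SGA360, a call that ended with scaling to totals alone, and fell by 0.47 with SGA315. Between the ligands 2 importers were higher and 4 lower with SGA360. SLC39A5 overlaps ANKRD52 and SLC39A1 overlaps CREB3L4 in the RefSeq gene table, and reads of overlapping genes may not have been separated.

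Genes listed for cadmium, heat and thiol stress mostly fell. The list also holds the transcription factors HSF1, which rose by 0.27 with SGA360, and NFE2L2. HSPA1A, with 1 count over all libraries, was not tested, while HSPA1B, with 147 counts, was. How reads matching several genes were treated is not given, so a low count need not mean absence. Of 14 tested, 1 rose and 13 fell with SGA360, none rose and 12 fell with SGA315, and 3 were higher and 4 lower with SGA360 than with SGA315. The medians were -0.41 with SGA360 and -0.40 with SGA315. HMOX1, heme oxygenase, had 70.9 ± 3.37 CPM with SGA360 and 69 ± 1.47 CPM with SGA315, against 78.6 ± 1.62 CPM with lovastatin alone. Its log2 change was -0.15 ± 0.041 with SGA360 (adjusted p = 0.000924, edgeR) and -0.19 ± 0.0417 with SGA315 (adjusted p = 7.16e-05), calls that ended with scaling to totals alone, where the values were -0.04 and -0.07.

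HSPA8, a heat shock chaperone, fell by 0.86 on the log2 scale with SGA360 and fell by 0.55 with SGA315. TXNRD1, thioredoxin reductase, fell by 0.66 with SGA360 and fell by 0.51 with SGA315. HSPB1, a small heat shock protein, fell by 0.42 with SGA360 and fell by 1.12 with SGA315. The largest adjusted p among these 3 genes and both ligands was 7.85e-10 (edgeR, for HSPB1 with SGA360).

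**Figure D4:**
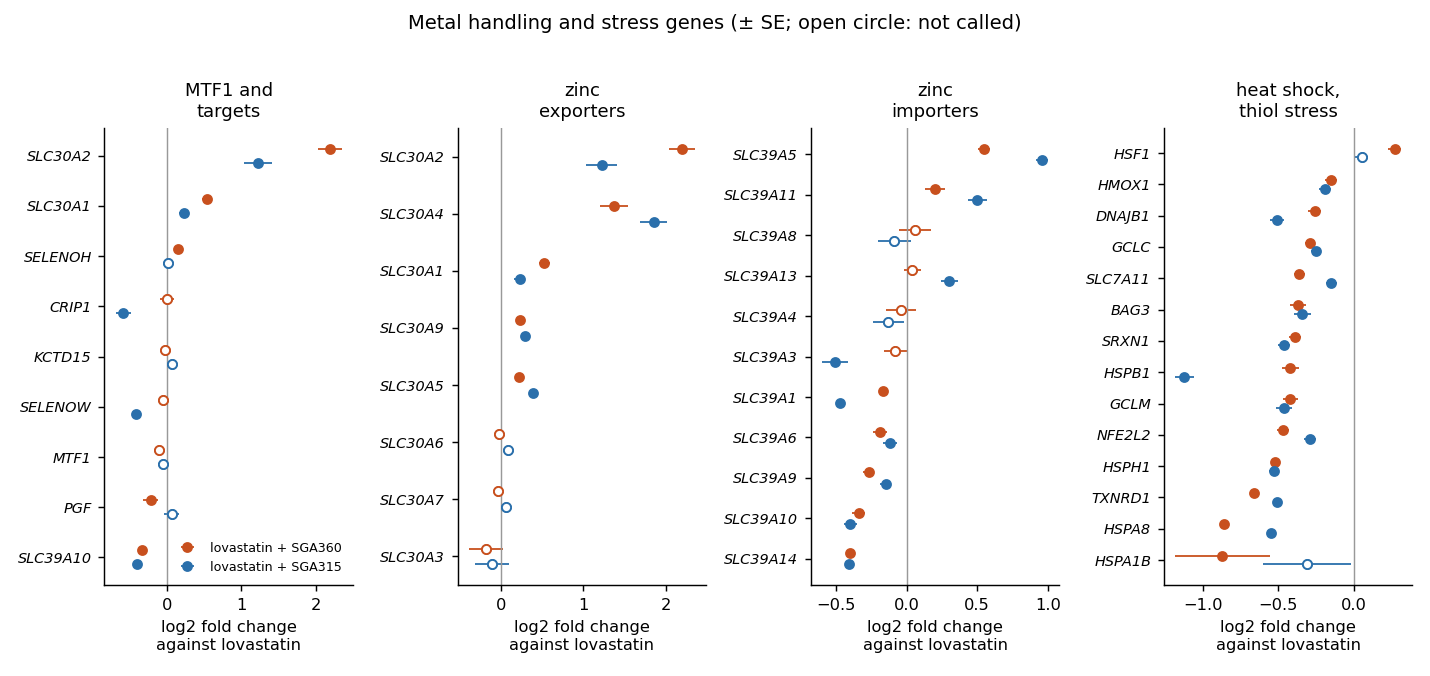
Fitted log2 fold change against lovastatin alone, with SE, of the tested genes of 4 lists, with SGA360 in orange above SGA315 in blue in each row; open circles did not pass an adjusted p of 0.05. SLC30A2 stands at 2.19 with SGA360 and 1.22 with SGA315, MTF1 is open for both, and 13 of the 14 stress genes lie below 0 and are called with SGA360.

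Glucocorticoids are also known to raise MT2A. NR3C1, the glucocorticoid receptor, had 53.9 ± 3.7 CPM with SGA360 and 53 ± 2.94 CPM with SGA315, against 31.3 ± 1.4 CPM with lovastatin alone, and rose by log2 0.78 ± 0.0547 and 0.76 ± 0.0557 (adjusted p = 3.48e-20 and 1.57e-19, edgeR). The ligands did not differ in it by the test (log2 0.02, 95% interval -0.08 to 0.12, adjusted p = 0.789). Of 9 tested genes listed for the receptor and its targets, 2 rose and 2 fell with SGA360 (3 and 1 with scaling to totals alone) and 2 rose and 4 fell with SGA315. KLF9, of the same list, rose by 0.71 ± 0.234 with SGA360 (adjusted p = 0.00688, edgeR) and was not called with SGA315 (0.29 ± 0.256, adjusted p = 0.311). PER1, also listed, was not called with SGA360 (0.07 ± 0.0749, adjusted p = 0.416) and rose by 0.51 ± 0.0715 with SGA315 (adjusted p = 3.96e-09). SGK1, a kinase gene that glucocorticoids raise, fell by 1.04 with SGA360 and fell by 0.78 with SGA315. FKBP5, a chaperone gene with the same known response, was not called with SGA360 (log2 -0.04 ± 0.0535, adjusted p = 0.577, 0.08 with scaling to totals alone) and fell by 0.59 with SGA315.

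The order of the ligands differed between the metallothioneins and CYP1A1, the best-known AHR target. CYP1A1 had 5.45 ± 0.402 CPM with SGA360 and 1053 ± 29.9 CPM with SGA315, against 44.6 ± 3.82 CPM with lovastatin alone. Its log2 change was -3.03 ± 0.0817 with SGA360 (adjusted p = 2.51e-42, edgeR) and 4.56 ± 0.0364 with SGA315 (adjusted p = 1.26e-74). Other listed targets did not share one pattern. CYP1B1 fell by 1.06 with SGA360 and rose by 2.14 with SGA315, whereas NQO1 fell by 0.89 and fell by 0.49. ALDH3A1 fell by 1.69 with SGA360 and was not called with SGA315 (0.24 ± 0.113, adjusted p = 0.0515, edgeR). The latter value passed the threshold with scaling to totals alone (0.36) and without SGA315 replicate 3 (0.34). AHR had 69.8 ± 2.52 CPM with SGA360 and 50.5 ± 1.8 CPM with SGA315, against 79 ± 2.44 CPM with lovastatin alone. Its fall of 0.65 on the log2 scale with SGA315 kept its call under the alternatives run, while that with SGA360 (-0.18) lost its call with scaling to totals alone.

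No tested gene beside the cluster had a fitted change as large as those of MT2A, MT1X or MT1E with the same ligand. With SGA315, MT1F (log2 1.73 ± 0.184) stood near its neighbour NLRC5 (1.72 ± 0.342). The SGA315 changes of MT1X (2.15 ± 0.197) and MT1E (2.58 ± 0.526) were higher, but their errors leave them not clearly apart from NLRC5. MT1G with SGA315 (2.46 ± 1.09) rests on 1 lovastatin count and cannot be set apart from NLRC5. Of the 10 nearest protein-coding genes on each side, 15 were tested: 8 rose and 5 fell with SGA360, 7 rose and 4 fell with SGA315, and 4 were higher and 5 lower with SGA360 than with SGA315. BBS2, a ciliary gene next to MT4, rose by log2 0.40 ± 0.0479 with SGA360 and 0.51 ± 0.0479 with SGA315, and it overlaps OGFOD1, so that its reads may not have been separated. NUP93, a nuclear pore gene next to MT1X, fell by 0.44 with SGA360 and fell by 0.60 with SGA315.

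NLRC5, an immune regulator and the largest change among the neighbours, had 1.52 ± 0.266 CPM with SGA360 and 1.45 ± 0.2 CPM with SGA315, against 0.437 ± 0.0427 CPM with lovastatin alone. It rose by 1.79 ± 0.332 and 1.72 ± 0.342 (adjusted p = 3.74e-06 and 1.08e-05, edgeR), and between the ligands its interval was -0.42 to 0.56. GNAO1, a G-protein gene, rose by 0.68 ± 0.116 with SGA360 and 0.66 ± 0.118 with SGA315, HERPUD1 rose by 0.25 and 0.55, and CPNE2 fell by 0.67 with SGA360 and fell by 0.98 with SGA315.

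**Figure D5:**
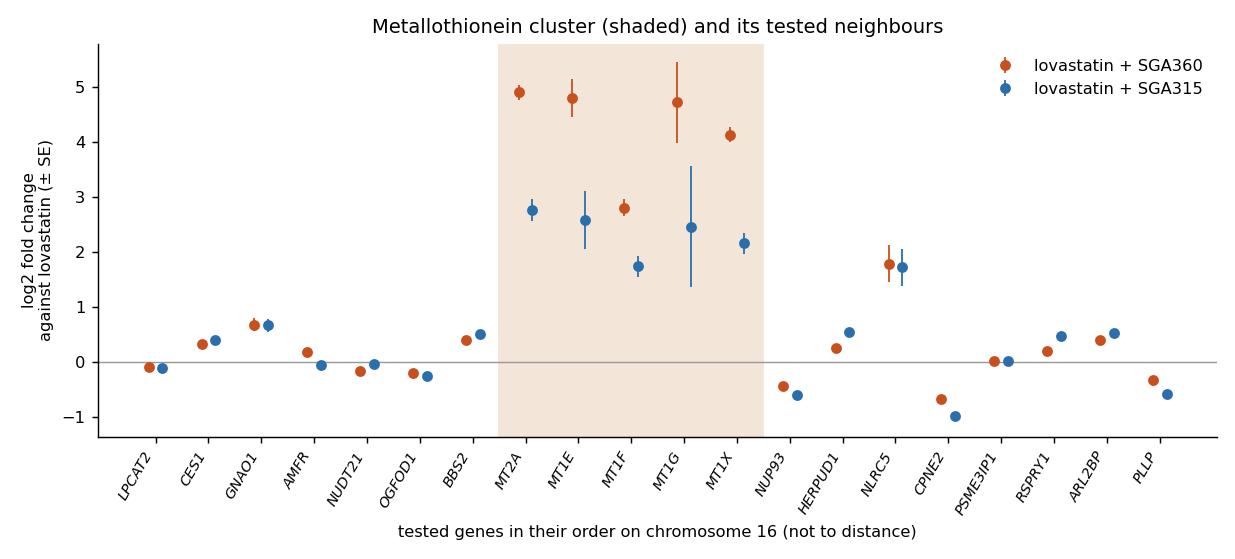
Fitted log2 fold change against lovastatin alone, with SE, of tested genes in their order on chromosome 16 (not to distance), with SGA360 in orange left of SGA315 in blue. The shaded metallothioneins reach 4.90 with SGA360, while their tested neighbours lie between -0.98 for CPNE2 with SGA315 and 1.79 for NLRC5 with SGA360.

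Few genes outside the family had a pair of changes like that of MT2A. Likeness was measured as the distance between the pairs of log2 changes, SGA360 and SGA315 each against the same 3 lovastatin libraries, over genes that averaged 1 CPM or more. The nearest gene outside the family was SULT1C2, a sulfotransferase, at a distance of 1.37, followed by TRPV6, the calcium channel of the gut epithelium, at 1.44, STK32A, a kinase gene, at 1.55, ALDH1L1, a folate enzyme, at 2.1, and DUSP15, a phosphatase, at 2.18. Within the family MT1X lay at 0.981 and MT1F at 2.33. The distances of MT1E and MT1G are not given, because their changes against lovastatin rest on 6 counts and 1 count. Of 13813 genes outside the family, 23 were at least 4-fold higher with SGA360 and at least 2-fold higher with SGA315.

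These 5 genes were picked by the same contrasts, so their values are likewise a description. SULT1C2 had 6.73 ± 1.21 CPM with SGA360 and 5.67 ± 0.49 CPM with SGA315, against 0.484 ± 0.0828 CPM with lovastatin alone. DUSP15 had 61.8 ± 2.51 CPM with SGA360 and 33.5 ± 1.32 CPM with SGA315, against 8.53 ± 0.743 CPM with lovastatin alone (SD, n = 3 each). DUSP15 thus had its groups in the order of MT2A, with a log2 difference between the ligands of 0.89 ± 0.0513 beside 2.14 ± 0.0892 for MT2A. The difference between the ligands was 0.23 ± 0.13 for SULT1C2, 0.54 ± 0.145 for TRPV6, 1.03 ± 0.229 for STK32A and -0.55 ± 0.254 for ALDH1L1. STK32A, with 178 counts in all, overlaps DPYSL3, with 13364, and ALDH1L1 overlaps its antisense genes, so reads of these genes may not have been separated.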

How the data were processed

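Per the file headers, the deposited table gave read counts for each RefSeq transcript in each library, and its values are whole numbers without scaling. The submitters' processing notes name TopHat2 2.0.13, HTSeq 0.5.4p3 and hg19 but give no roles. Neither the annotation release nor the strand setting is given in the sources used here, so reads of overlapping genes may not have been separated. Per the labels' protocols, RNA was enriched for poly(A).

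Rows were named from RefSeq (GRCh38.p14) or GENCODE 29. Of 65325 rows, 434 had no name, held 0.255% of counts and stayed out. The row with the highest total stood for each gene. Where genes had identical counts (23 sets), all but 1 per set were dropped. The number of unused sample columns was 0. Library totals over these rows were 12334088 to 16870131. Replicates of every group differed by more than sampling noise (chi-square per degree of freedom 1.36 to 2.39).

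All 9 libraries entered 1 edgeR 4.0.16 quasi-likelihood fit in R 4.3.3, scaled by TMM and without covariates, after filterByExpr with a minimum count of 10 (its CPM equivalent in at least 3 libraries) and a minimum total of 15. Every adjusted p is from this fit. The Benjamini-Hochberg method adjusted p over all 14678 tested genes, and an adjusted p under 0.05 makes a call. The fit was tested on simulated counts. Ratios of summed counts carry exact (Clopper-Pearson) 95% intervals, which cover counting error only, and a group at 0 was set to a floor of 3 counts.

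The members and all gene lists were chosen with earlier results of these data known. Named are the 8 members, other metallothionein loci with counts, 7 genes by name (MTF1, SLC30A1, SLC39A10, HMOX1, NR3C1, CYP1A1 and AHR), up to 3 genes per list with the smallest p per comparison, called neighbours with an absolute log2 change of at least 0.5, and the 5 genes nearest to MT2A. The silent loci of the family, SERPINA3 and the stress list genes HSF1, NFE2L2, HSPA1A and HSPA1B are given beside them. Not every gene of the rule is described. Alternatives were RLE scaling, scaling to totals, no filter, the lowest accession per gene, fits limited to each pair of groups, a sum over all metallothionein loci, DESeq2 1.42.0, a prior count of 2, a replicate block and leaving out each library.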

Additional observations from a re-analysis of the deposited data

How the results depend on the processing

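The summed metallothionein level kept its order of groups under all settings run, with log2 ratios of 4.06 to 4.25 for SGA360 over lovastatin, 2.15 to 2.35 for SGA315 over lovastatin and 1.81 to 1.97 for SGA360 over SGA315 when single libraries were left out. No fitted change of a tested member turned its direction, and of 254 such values 9 moved by more than the replicate spread. For MT1E these were the changes without lovastatin replicate 1 and, between the ligands, that with a prior count of 2 (2.06). The others were the MT1G values given above, which rest on few counts. The spread of MT1E against lovastatin was itself wide (SD of log2 1.24), so its falls to 3.93 and 1.88 with a prior count of 2 stayed within it. Genes called numbered 8609 to 9379 with SGA360, 9604 to 10234 with SGA315 and 5332 to 6212 between the ligands without single libraries, and 7910, 8921 and 4711 with DESeq2. Deviations from the group mean were little correlated between libraries of the same number (-0.0249 to 0.0456). Sampling noise could hide a shared deviation, so these values cannot decide whether the numbers pair the libraries. With a replicate block 9337, 10273 and 6438 genes were called, beside 9207, 10157 and 6263 in the main fit. With scaling to totals alone, values near 0 turned sign for FKBP5 (0.08), MTF1 (0.00 with SGA360, 0.07 with SGA315) and TESMIN (0.06), all with SGA360 unless named. Between the ligands, leaving out single libraries gave -0.16 to 0.09 for GNAO1, -0.09 to 0.20 for NLRC5 and -0.02 to 0.08 for NR3C1. Counts of called list genes moved by more than 1.5 times as follows, and the cause was not tested. With scaling to totals alone, TESMIN was the 1 called gene of its list with SGA315; 1 gene of the MTF1 list and 1 of the glucocorticoid list were lower, 3 zinc importers were lower and 5 copper genes higher with SGA360; 4 genes of the MTF1 list and 1 stress gene were higher with SGA315. With DESeq2, 1 gene of the MTF1 list was lower, and 1 zinc importer and 1 glucocorticoid gene were higher with SGA360, while between the ligands 0 genes of the MTF1 list, 1 copper gene and 3 neighbours were lower. Without single libraries the counts ran from 1 to 2 for the MTF1 list (lower), zinc importers and glucocorticoid genes (both higher) with SGA360, 2 to 4 for iron genes higher with SGA315, and, between the ligands, 0 to 1 for the MTF1 list (lower) and copper genes (higher), 1 to 4 for copper genes and 3 to 6 for neighbours (both lower).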

Other observations

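The handling genes of copper, which metallothioneins also bind, changed in both directions, as did the genes tested as a whole. Of all genes tested, 31.4% rose and 31.4% fell with SGA360, and 36% rose and 33.2% fell with SGA315. Between the ligands 21.8% were higher and 20.9% lower with SGA360. Of 12 tested, 3 rose and 5 fell with SGA360 (5 and 4 with scaling to totals alone), 4 rose and 4 fell with SGA315, and 1 was higher and 3 lower with SGA360 than with SGA315. ATP7A, the copper pump of the secretory pathway, rose by log2 0.72 ± 0.121 with SGA360 and 0.99 ± 0.118 with SGA315 (adjusted p = 3.84e-07 and 3.13e-11, edgeR). ATOX1, its copper chaperone, fell by 0.56 with SGA360 and fell by 0.68 with SGA315, and SOD1, the copper and zinc superoxide dismutase, fell by 0.61 and fell by 0.52. Of 9 tested genes of iron handling, 4 rose and 3 fell with SGA360 (6 and 2 with scaling to totals alone), 4 rose and 3 fell with SGA315, and 5 were higher and 2 lower with SGA360 than with SGA315. TFRC, the transferrin receptor, fell by 0.58 with SGA360 and fell by 1.31 with SGA315, while FTH1, the ferritin heavy chain, rose by 0.26 and 0.41.

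Interleukin 6 is known to raise metallothioneins in liver through STAT3. Of 12 tested genes of that pathway and of the acute phase, 4 rose and 7 fell with SGA360 (5 and 5 with scaling to totals alone), 4 rose and 7 fell with SGA315, and 6 were higher and none lower with SGA360 than with SGA315. STAT3 rose by log2 0.57 ± 0.0363 with SGA360 and 0.26 ± 0.0379 with SGA315, whereas FGA, a fibrinogen chain, fell by 0.81 and fell by 1.03. SERPINA3, also of this list, rose by 1.84 ± 0.188 with SGA360 and 1.91 ± 0.189 with SGA315 (adjusted p = 2.01e-13 and 3.52e-14, edgeR). CEBPB rose by 0.57 with SGA360 and 0.40 with SGA315, and it overlaps CEBPB-AS1, which also had counts. Of 8 tested genes of AHR and its classical targets, 1 rose and 6 fell with SGA360, 4 rose and 2 fell with SGA315, and 1 was higher and 6 lower with SGA360 than with SGA315.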
